A study of Mus musculus with 12 samples.

Results

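NPM-ALK is a fusion of nucleophosmin with the anaplastic lymphoma kinase that drives a T-cell lymphoma, anaplastic large cell lymphoma (ALCL), in humans and mice. The libraries described here compare the tumor cells of NPM-ALK transgenic mice (ALK) with the thymocytes of control mice (Ctrl), and are 6 of the 12 samples of the series, placed in their groups by the labels, 3 in each. In the ALK mice the human NPM-ALK fusion is expressed under the Cd4 enhancer and promoter, and the labelled source is NPM-ALK-positive lymphoma. The Ctrl mice are Dnmt1 fl/fl without Cre, that is, loxP sites flank part of Dnmt1 and nothing deletes it. The labels of the ALK mice name no floxed allele, so that effects of this allele and of the tumor cannot be told apart. All 6 mice were labelled male, on a mixed C57Bl/6 and SV/129 background, aged 25, 21 and 20 wk for Ctrl1 to Ctrl3 and 24, 22 and 31 wk for ALK1 to ALK3. RNA came from homogenized tissue, and each library is 1 mouse, so that fewer cells of a type and less RNA per cell cannot be told apart in any value that follows.

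The fused kinase signals through STAT3, PI3K and the RAS-MAPK cascade, and in human ALCL it is known for tumors that carry CD30, lack much of the T-cell receptor and express cytotoxic proteins. Normal thymocytes, in contrast, are mostly cells with both coreceptors, CD4 and CD8, that rearrange and test their T-cell receptor, guided early on by Notch signals and later by signals through the receptor itself. Genes were therefore grouped by these roles, in 40 lists of pathways and lineages and 10 lists of markers of other cell types, and followed through each tumor.

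Between 17957289 and 18864327 reads were counted on genes in Ctrl and between 12473857 and 14758001 in ALK, with 21582 to 21921 and 18602 to 19706 genes holding a read. A limit of 3 counts in a Ctrl library equals 0.159 to 0.167 CPM, counts scaled to a common library total, and in an ALK library 0.203 to 0.24 CPM. Values in the text are CPM scaled by edgeR's TMM factors and are given in the order of the replicate numbers 1, 2 and 3. A gene is said to have risen or fallen where edgeR's quasi-likelihood test gave a p under 0.05 after Benjamini-Hochberg adjustment and a log2(FC), the log2 fold change of ALK over Ctrl, beyond 1 in either direction. Across the 16052 genes tested, 8.41% rose and 12% fell (20.4% in either direction), and the median log2(FC) was 0.05. Each list is read against these shares. Where a list's count of rises or falls changed by over 1.5 times when 1 library was left out, the count without that library follows in brackets. In the lists with 0 rises or 0 falls, at most 4 members had an unadjusted p under 0.05 in that direction, and DESeq2 called at most 1. ALK3, labelled male, had Xist, the RNA that coats the inactive X chromosome, at 140.0 CPM against 1.43 to 4.18 in Ctrl and 1.95 and 1.13 in the other tumors, while the Y-linked Ddx3y ranged from 93.3 to 167 CPM in the tumors and from 178 to 205 CPM in Ctrl.

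Several lists held a larger share of rises or falls than all genes tested. Of nucleolar genes 25 of 38 rose (13 without ALK2), of glycolysis genes 9 of 22 and of amino acid supply genes 12 of 30, as did Notch1 and Myc. Of genes of thymocyte selection 17 of 33 fell, of the double-positive stage 10 of 23, of MHC class II genes 8 of 12 and of chemokine receptors and egress genes 9 of 25. Interferon-stimulated genes fell in 18 of 34 (10 without Ctrl1, 11 without ALK2) and checkpoint genes in 9 of 23 (16 without ALK3). Of the markers of other cells, 12 of 18 fell for thymic epithelium, 10 of 16 for NK cells, 7 of 11 for gamma-delta T cells, 7 of 11 for granulocytes (2 to 4 without 1 of the libraries other than ALK3) and 5 of 15 for B cells (2 or 3 without any 1 library). Of the 1031 distinct genes of all lists that were tested, 110 rose and 201 fell, so that most of the 3281 genes called over the whole table are in no list. Genes that fell did so in most tumors alike, whereas many of those that rose did so in some tumors only. The way genes are called favors this contrast, as described below.

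The driver and its direct partners were examined first. Counts assigned to mouse Alk (chr17:71868972-72604627 in GRCm38), a receptor kinase of the nervous system, rose (log2(FC) 7.60, SE 0.44, adjusted p = 6.82e-06), and whether reads of the human transgene are counted there was not tested. Of the list of ALK signaling and adaptor genes, 2 of 23 tested genes rose and 2 fell, with a median log2(FC) of 0.01 (0 falls without ALK2, 1 fall without Ctrl1 or Ctrl3). Mapk3, which encodes the kinase ERK1, was the other rise, at 126, 296 and 181 CPM in ALK against 78.1, 71.7 and 74.1 in Ctrl (log2(FC) 1.43, SE 0.25, adjusted p = 0.00267). The falls were Src (log2(FC) -1.61, adjusted p = 0.0262, lost its call without Ctrl1, Ctrl3 or ALK2 (adjusted p = 0.0591 to 0.081)) and Stat5b (log2(FC) -1.05, adjusted p = 0.00994, lost its call without ALK2 (log2(FC) -0.99) and without ALK3 (log2(FC) -0.95)). Stat3 itself, the main transcription factor downstream of NPM-ALK, lay at 262, 231 and 371.1 CPM in ALK and 259, 235 and 235 in Ctrl, and did not pass the test (log2(FC) 0.24, SE 0.21, adjusted p = 0.398).

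STAT3 acts by binding DNA and switching on its own inhibitors along with survival genes. Of its feedback and target genes, 2 of 25 tested genes rose and 9 fell, with a median log2(FC) of -0.89 (1 rise without Ctrl2 or Ctrl3). Socs3, the inhibitor most directly induced by STAT3, rose (log2(FC) 2.29, SE 0.56, adjusted p = 0.0134) and lost its call without Ctrl2 or Ctrl3 (adjusted p = 0.0504 to 0.0532). Il10, an immunosuppressive cytokine, was at 24.8, 26.2 and 0.704 CPM in the tumors and 0.581, 0.482 and 0.162 in Ctrl (log2(FC) 5.37, SE 1.21, adjusted p = 0.00924), so that ALK1 and ALK2 carried most of the rise and ALK3 lay just above the Ctrl range. Other feedback genes moved the opposite way. Cish, an inhibitor induced by STAT5, was at 0.873, 3.06 and 6.49 CPM against 31, 27.6 and 34.5 in Ctrl (log2(FC) -3.16, SE 0.55, adjusted p = 0.00287). Bcl6, a transcriptional repressor, fell likewise (log2(FC) -3.19, SE 0.35, adjusted p = 0.000417), as did the costimulatory receptor Icos (-3.85), the interleukin 21 receptor Il21r (-3.32), Socs1 (-1.78) and the kinase Pim1 (-1.41). These 6 falls passed the test without any 1 of the 6 libraries.

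STAT dimers bind the palindrome TTCNNNGAA, where N is any base, which reads the same on the opposite strand. In windows from 250 bases before to 50 bases after RefSeq gene starts on GRCm38.p6, it was found for 5 of the 21 genes of the STAT3 list that have such a window (23.8%), against 8.25% of the 11812 tested genes with a window and 8.30% of all 32851 windows. The sequences of the 3 list members show that it was present both in the gene that rose and in genes that fell, with the palindrome in capitals and 10 bases on either side.
Socs3, chr11:117969502-117969530, minus strand, 154 bases before the start, rose: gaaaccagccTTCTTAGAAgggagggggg
Cish, chr9:107296649-107296677, plus strand, at the first base of the gene, fell: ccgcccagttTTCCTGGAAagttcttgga
Bcl6, chr16:23981433-23981461, minus strand, 168 bases before the start, fell: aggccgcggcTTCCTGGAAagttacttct
A match of this kind describes the letters of the window and no binding was measured.

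Genes that mark human ALCL showed no common direction, since 2 of 27 tested genes rose and 7 fell, with a median log2(FC) of -0.41 (1 rise without Ctrl1, 4 rises without ALK1, 4 falls without Ctrl2). The defining surface marker did rise: Tnfrsf8, which encodes CD30, was at 77.3, 51.3 and 97.4 CPM in the tumors and 12, 11.7 and 14.7 in Ctrl (log2(FC) 2.56, SE 0.33, adjusted p = 0.000737). The AP-1 partner Batf3, a marker of the human disease, fell instead (log2(FC) -2.85, SE 0.70, adjusted p = 0.0133), as did Cd274, which encodes the checkpoint ligand PD-L1 (log2(FC) -1.74, SE 0.21, adjusted p = 0.000592), and the sphingosine kinase Sphk1 (log2(FC) -3.10, SE 0.47, adjusted p = 0.00145). Gzmb, which encodes granzyme B, was at 0, 0.175 and 0 CPM in the tumors, at or below 3 counts, and at 1.22, 2.14 and 1.24 in Ctrl (adjusted p = 0.0184, lost its call without Ctrl2 (adjusted p = 0.0508)).

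Genes of T-cell identity came next. Components of the T-cell receptor (TCR) and its first signaling steps included genes that fell in every tumor and genes that were low in some tumors only. In this list 0 of 32 tested genes rose and 9 fell, with a median log2(FC) of -0.85 (1 rise without ALK1). Cd5, a surface brake on TCR signals (chr19:10717116-10739002), was at 2.22, 0.786 and 2.19 CPM in the tumors against 275, 239.7 and 231 in Ctrl (log2(FC) -7.14, SE 0.41, adjusted p = 6.82e-06). Cd6, its close relative, fell in the same way (log2(FC) -6.09, SE 0.68, adjusted p = 0.000443), as did Rasgrp1, which links the TCR to RAS (log2(FC) -4.76, SE 0.57, adjusted p = 0.000559). In each of these 3 genes the tumors lay far below every Ctrl library, and the call stood without any 1 library.

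The CD3 chains, which carry the TCR to the surface, differed among themselves. Cd3e was at 308, 399 and 324 CPM in ALK and 587, 492 and 417 in Ctrl and did not pass the test (log2(FC) -0.54, SE 0.28, adjusted p = 0.168). Cd3d lay below Ctrl in every tumor, at 212, 2.27 and 13.5 CPM against 467, 468 and 392.1, but with a wide spread among tumors (log2(FC) -2.54, SE 1.11, adjusted p = 0.108), and passed the test without ALK1 (log2(FC) -5.80, adjusted p = 0.000478). Cd247, the zeta chain, fell (log2(FC) -1.85, SE 0.27, adjusted p = 0.00124), and Cd3g fell (log2(FC) -1.90, adjusted p = 0.0299) but lost its call without Ctrl1, Ctrl2, Ctrl3 or ALK3 (adjusted p = 0.0628 to 0.0718). The constant regions of the receptor differed between tumors: Trac, of the alpha chain, was at 5.85, 6.55 and 298 CPM against 516, 475 and 375 in Ctrl, and Trbc1, of the beta chain, at 1.68, 839 and 229.7 against 1081, 1118 and 788. Hence ALK1 had almost no Trbc1, ALK2 held it at the Ctrl level, and ALK3 alone kept much of Trac. Neither difference was past the limits (adjusted p = 0.182 and 0.367), although Trac passed the test without ALK3 (log2(FC) -6.21, adjusted p = 9.89e-06), whereas Trbc2 fell (log2(FC) -1.59, SE 0.34, adjusted p = 0.0074).

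Genes of the double-positive stage, in which thymocytes carry both coreceptors, fell in part. Of this list 2 of 23 tested genes rose and 10 fell, with a median log2(FC) of -1.12 (0 rises without Ctrl1, Ctrl2, Ctrl3 or ALK2, 1 rise without ALK1). Cd4 was at 35.3, 27.5 and 116 CPM in ALK and 1409, 1354 and 1287 in Ctrl (log2(FC) -4.50, SE 0.56, adjusted p = 0.00065), and Cd8b1 at 21.7, 7.25 and 28.8 against 1534, 1693 and 1346 (log2(FC) -6.31, SE 0.56, adjusted p = 0.000133). Cd8a fell with a wider spread, at 10.4, 200.2 and 292 CPM against 2077, 2256 and 1985, lowest in ALK1 (log2(FC) -3.65, SE 0.88, adjusted p = 0.012). The chemokine receptor Ccr9, which holds thymocytes in the cortex (-4.95), the recombination gene Rag2 (-3.20), the survival gene Bcl2l1 (-2.79) and the chromatin organizer Satb1 (-2.35) also fell. The rises were the surface glycoprotein gene Cd24a (log2(FC) 1.53, adjusted p = 0.0238), which lost its call without Ctrl1, Ctrl2, Ctrl3, ALK2 or ALK3 (adjusted p = 0.0662 to 0.0805), and the Wnt effector Lef1 (log2(FC) 1.58, adjusted p = 0.0213), which lost its call without Ctrl1, Ctrl2, Ctrl3, ALK1 or ALK2 (adjusted p = 0.0533 to 0.0728). Ptcra, the surrogate alpha chain of immature thymocytes, ranged from 32.5 to 424 CPM in the tumors against 46.3 to 49 in Ctrl, highest in ALK1, and did not pass the test (log2(FC) 2.07, SE 0.75, adjusted p = 0.0595), although it passed the test without ALK3 (log2(FC) 2.56, adjusted p = 0.00815). Rag1, the partner of Rag2, is listed at 0 in all 6 libraries, as are 24 of the 1095 distinct genes of all lists. Some of these are used by every cell, such as the ribosomal protein gene Rpl13 and the respiratory chain gene Cox4i1, so that a 0 here does not show that a gene is silent.

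**Figure D1:**
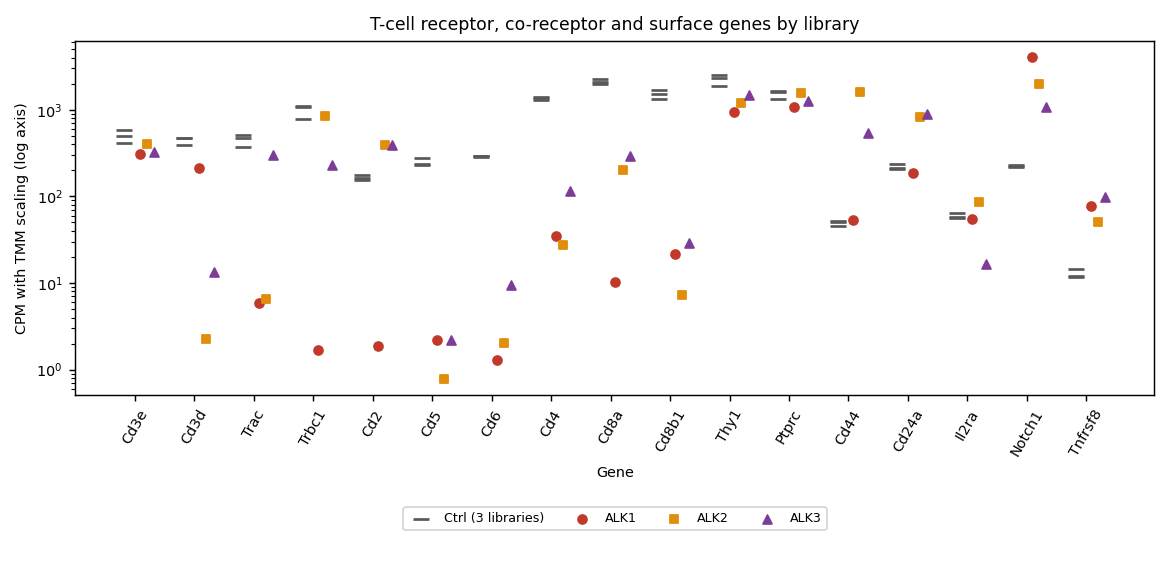
TMM-scaled CPM on a log axis for 17 surface and receptor genes, with the 3 Ctrl libraries as dashes and the tumors ALK1, ALK2 and ALK3 as separate markers. Cd5, Cd6, Cd4 and Cd8b1 lie below Ctrl in every tumor, and Notch1 and Tnfrsf8 lie above Ctrl in every tumor. Cd2 is low in ALK1 alone, while Trbc1 is lowest in ALK1 and also below Ctrl in ALK3.

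Genes switched on when a thymocyte is selected through its receptor and matures were examined next. Of these, 0 of 33 tested genes rose and 17 fell, with a median log2(FC) of -1.97, beside 12% falls over all genes (1 rise without ALK1). Their summed level was 2264, 3461 and 5345 CPM in the tumors against 5832, 5511 and 5005 in Ctrl, so that ALK3 lay within the Ctrl range. Cd69, an early activation antigen, was at 2.55, 1.4 and 4.93 CPM in the tumors and 84.7, 77 and 61.6 in Ctrl (log2(FC) -4.64, SE 0.39, adjusted p = 8.26e-05). Nr4a1, an immediate transcriptional readout of TCR signals, was at 2.02, 1.75 and 4.85 CPM against 121, 96.6 and 115 (log2(FC) -5.27, SE 0.42, adjusted p = 6.89e-05). Egr2 (-3.47) and Egr3 (-3.90), the factors that act beside it, the helper-lineage factor Zbtb7b (-3.07), the quiescence gene Slfn1 (-6.07), Gimap3 (-5.25) and Cd52 (-3.98) fell as well. Il7r, the receptor chain for interleukin 7, was an exception of another kind, at 1.28, 117 and 174 CPM against 91.3, 59.3 and 63.4 in Ctrl: it was low in ALK1 and above Ctrl in the other tumors (log2(FC) 0.45, SE 0.99, adjusted p = 0.762).

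Most transcription factors of the T lineage did not pass the test. In this list 2 of 32 tested genes rose and 8 fell, with a median log2(FC) of -0.30 (1 rise without Ctrl1, Ctrl2, Ctrl3 or ALK1, 5 falls without Ctrl1 or Ctrl3). Bcl11b, which seals T-cell commitment, was at 471, 462 and 439 CPM against 696, 641 and 645 in Ctrl (log2(FC) -0.53, SE 0.29, adjusted p = 0.188), and Gata3 at 65.7, 128 and 151 against 97.3, 84.6 and 77.7 (log2(FC) 0.41, SE 0.33, adjusted p = 0.362). Tcf7, a target of Notch, was at 32.4, 16.8 and 155 CPM against 202, 185 and 211, lower in ALK1 and ALK2 than in ALK3 (log2(FC) -1.55, SE 0.68, adjusted p = 0.11), and passed the test without ALK3 (log2(FC) -3.03, adjusted p = 0.00226). Runx1, a regulator of early T cells, rose (log2(FC) 1.82, SE 0.25, adjusted p = 0.00107). Among the falls were Zbtb16, the factor of innate-like T cells (log2(FC) -4.50, SE 0.97, adjusted p = 0.00751), Foxp3 of regulatory T cells, at 0.269, 0.0873 and 0.156 CPM against 6.24, 3.64 and 5.5 (adjusted p = 0.0068), and Eomes, at 0.0672, 0.0873 and 0.0782 CPM against 1.85, 0.643 and 1.46 (adjusted p = 0.0224, lost its call without Ctrl1, Ctrl3, ALK1, ALK2 or ALK3 (adjusted p = 0.0514 to 0.0625)).

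Notch genes moved in the other direction. Notch1, the receptor that drives early T-cell growth (chr2:26457903-26516663), was at 4087, 1994 and 1084 CPM in the tumors and 225, 218 and 233 in Ctrl (log2(FC) 3.41, SE 0.41, adjusted p = 0.000553), with every tumor far above Ctrl. Of the Notch receptors and direct targets, 8 of 24 tested genes rose and 0 fell, with a median log2(FC) of 0.42 (4 rises without Ctrl1, 5 rises without Ctrl2, 1 fall without ALK1 or ALK2, 4 falls without ALK3). With only the ALK and Ctrl libraries fitted, 5 of them rose. Nrarp, a feedback inhibitor of Notch, was at 51.8, 306 and 36.7 CPM against 9.35, 6.97 and 11.5 (log2(FC) 3.82, SE 0.71, adjusted p = 0.0037), and Igf1r, the receptor of insulin-like growth factor, rose as well (log2(FC) 1.93, SE 0.33, adjusted p = 0.00267). Dtx1, a Notch-induced ubiquitin ligase (log2(FC) 3.42, adjusted p = 0.0124), lost its call without Ctrl1 (adjusted p = 0.0559). The repressor Hes1 (log2(FC) 1.47, adjusted p = 0.0178) lost its call without Ctrl1, Ctrl2 or Ctrl3 (adjusted p = 0.0589 to 0.0649), Notch3 (log2(FC) 1.81, adjusted p = 0.0434) lost its call without Ctrl1, Ctrl2, Ctrl3 or ALK1 (adjusted p = 0.108 to 0.198), and Heyl (log2(FC) 2.23, adjusted p = 0.0261) lost its call without Ctrl1, Ctrl2, ALK1 or ALK2 (adjusted p = 0.0543 to 0.0956). The targets Hes5 and Hey1 did not pass the test with all libraries. Hes5 passed it as a fall without ALK2 (log2(FC) -5.94, adjusted p = 0.0243), and Hey1 as a fall without ALK3 (log2(FC) -2.96, adjusted p = 0.0173). Notch2 was at 83.2, 54.9 and 76.7 CPM against 64, 58.8 and 67.7 and did not pass the test (adjusted p = 0.747). The ligands of the list, Jag1, Jag2 and Dll1, did not pass it either (adjusted p = 0.117, 0.313 and 0.45), although Jag1 passed the test without ALK3 (log2(FC) -1.72, adjusted p = 0.0148), Jag2 passed the test without ALK1 (log2(FC) -1.44, adjusted p = 0.0311) and Dll1 passed the test without ALK3 (log2(FC) -1.99, adjusted p = 0.0255).

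Few genes of the earliest thymic progenitors passed the test: 1 of 24 tested genes rose and 4 fell, with a median log2(FC) of -0.37 (0 rises without Ctrl1, 3 rises without ALK1, 2 falls without Ctrl1, Ctrl2, Ctrl3, ALK1 or ALK2). Cd44, an adhesion receptor of progenitors and activated T cells, was at 53.6, 1601 and 534 CPM against 51.3, 45.9 and 52 in Ctrl (log2(FC) 3.87, SE 0.93, adjusted p = 0.0123), and lost its call without Ctrl1 (adjusted p = 0.0511), ALK1 being the tumor nearest to Ctrl. The progenitor receptor Kit was at 6.45, 51.4 and 68.4 CPM against 12, 10.1 and 16.4 (log2(FC) 1.71, SE 0.69, adjusted p = 0.0842), below Ctrl in ALK1 and above it in the other tumors, and passed the test without ALK1 (log2(FC) 2.22, adjusted p = 0.00513). Meis1, a stem cell factor, fell (log2(FC) -2.79, SE 0.62, adjusted p = 0.0088). Among SOX, HOX and homeobox factors, 1 of 15 tested genes rose and 3 fell, with a median log2(FC) of 0.06 (2 rises without ALK1), and Meis1 and its partner Hoxa7 (log2(FC) -4.32, adjusted p = 0.00107) were among the falls. The rise was Sox8, a factor of neural crest and glia, at 0.537, 932 and 525 CPM against 0.423, 0.536 and 0.377, so that ALK1 lay just above Ctrl and the other tumors carried the difference.

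Myc rose beside genes of the nucleolus. MYC (chr15:61985391-61990374) is a transcription factor that raises ribosome production and metabolism, and it is opposed by the MXD repressors, which share its partner MAX. Myc was at 244, 276 and 217 CPM in the tumors and 69.8, 75.8 and 77.4 in Ctrl (log2(FC) 1.72, SE 0.21, adjusted p = 0.000553), above every Ctrl library in all 3 tumors. In the MYC network, 2 of 13 tested genes rose and 3 fell, with a median log2(FC) of -0.11. Tfap4, a factor induced by MYC, rose (log2(FC) 1.26, SE 0.22, adjusted p = 0.00299), while the repressors Mxd4 (log2(FC) -1.82, SE 0.24, adjusted p = 0.00079) and Mxd1 (log2(FC) -1.30, SE 0.30, adjusted p = 0.0104) and the relative Mycl (log2(FC) -2.11, SE 0.51, adjusted p = 0.0126) fell. Max and Mycn did not pass the test (adjusted p = 0.218 and 0.441).

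Ribosome biogenesis in the nucleolus is a textbook output of MYC. Of the nucleolar genes, 25 of 38 tested genes rose and 0 fell, with a median log2(FC) of 1.08, and in 37 of 38 the tumors did not overlap with Ctrl, against 46.4% of all genes. The count was lower without 1 library (13 rises without ALK2). Mybbp1a, a binding protein of rRNA genes, was at 388.5, 444 and 381 CPM in the tumors and 123, 137 and 134 in Ctrl (log2(FC) 1.62, SE 0.19, adjusted p = 0.000451). Polr1b, a core subunit of RNA polymerase I, was at 81.4, 70.3 and 69.3 CPM against 23.3, 23.9 and 27.1 (log2(FC) 1.57, SE 0.23, adjusted p = 0.00128), and the processing factor Rrp1b at 123, 76.4 and 57.2 against 23.8, 30.1 and 29.1 (log2(FC) 1.63, SE 0.26, adjusted p = 0.00209). Npm1, the mouse nucleophosmin gene and the fusion partner of ALK, rose too (log2(FC) 1.30, SE 0.21, adjusted p = 0.00185), and whether reads of the human transgene are counted there was not tested. Folds were small throughout, Rrp1b having the largest. The exception in sign was Wdr12 (log2(FC) -0.86, SE 0.26, adjusted p = 0.0301).

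MYC and MAX bind the E-box CACGTG, which also reads the same on both strands. It was found in the windows of 9 of 33 nucleolar genes (27.3%), against 11% of the tested genes with a window and 7.15% of all windows. The share was 13.2% among all genes with a window that rose. In the STAT3 list it was 23.8% (5 of 21), so that a high share was not particular to nucleolar genes. All 9 were among the 21 members with a window that rose. Of the genes printed below, Mybbp1a and Utp20 kept their call without any 1 library. Pes1, Tsr1, Grwd1 and Nop2 lost it without ALK2 (log2(FC) 0.89 to 0.997), Grwd1 also without Ctrl1 (log2(FC) 0.98). Nle1 lost it without ALK1 (log2(FC) 0.93). Of the sites, 8 lay after the start of the gene and 1 before it. The sequences of 7 of these genes are given to show the site at the start of genes that rose, with the E-box in capitals.
Mybbp1a, chr11:72441357-72441376, plus strand, E-box from base 41 of the gene: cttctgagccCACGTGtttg
Utp20, chr10:88826765-88826787, minus strand, E-box from base 38 of the gene: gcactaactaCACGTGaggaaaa
Pes1, chr11:3963967-3963992, plus strand, E-box from base 3 of the gene: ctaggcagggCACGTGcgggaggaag
Nle1, chr11:82908357-82908382, minus strand, E-box from base 24 of the gene: ggttctcctcCACGTGgggacgcagg
Tsr1, chr11:74898094-74898119, plus strand, E-box from base 25 of the gene: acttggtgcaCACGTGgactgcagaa
Grwd1, chr7:45830740-45830765, minus strand, E-box from base 35 of the gene: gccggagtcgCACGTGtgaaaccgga
Nop2, chr6:125131813-125131838, plus strand, 60 bases before the start: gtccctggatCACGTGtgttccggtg
The list was chosen with results of these data known, and the share describes the letters of these windows and no binding.

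Other parts of the protein synthesis machinery moved less. Of cytosolic ribosomal proteins, 7 of 29 tested genes rose and 0 fell, with a median log2(FC) of 0.86 (4 rises without Ctrl1 or Ctrl3), led among the rises kept without any 1 library by Rpl23 (log2(FC) 1.18, SE 0.22, adjusted p = 0.00365) and Rpl5 (log2(FC) 1.16, SE 0.18, adjusted p = 0.00154). Ribosomal protein genes have many near-identical pseudogene copies, so that their counts are uncertain. Of translation initiation factors, 2 of 23 tested genes rose and 0 fell, with a median log2(FC) of 0.60 (1 rise without Ctrl1 or ALK2, 4 rises without Ctrl2), and Eif2b3, part of the exchange factor of eIF2, rose without any 1 library (log2(FC) 1.67, SE 0.30, adjusted p = 0.00332).

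**Figure D2:**
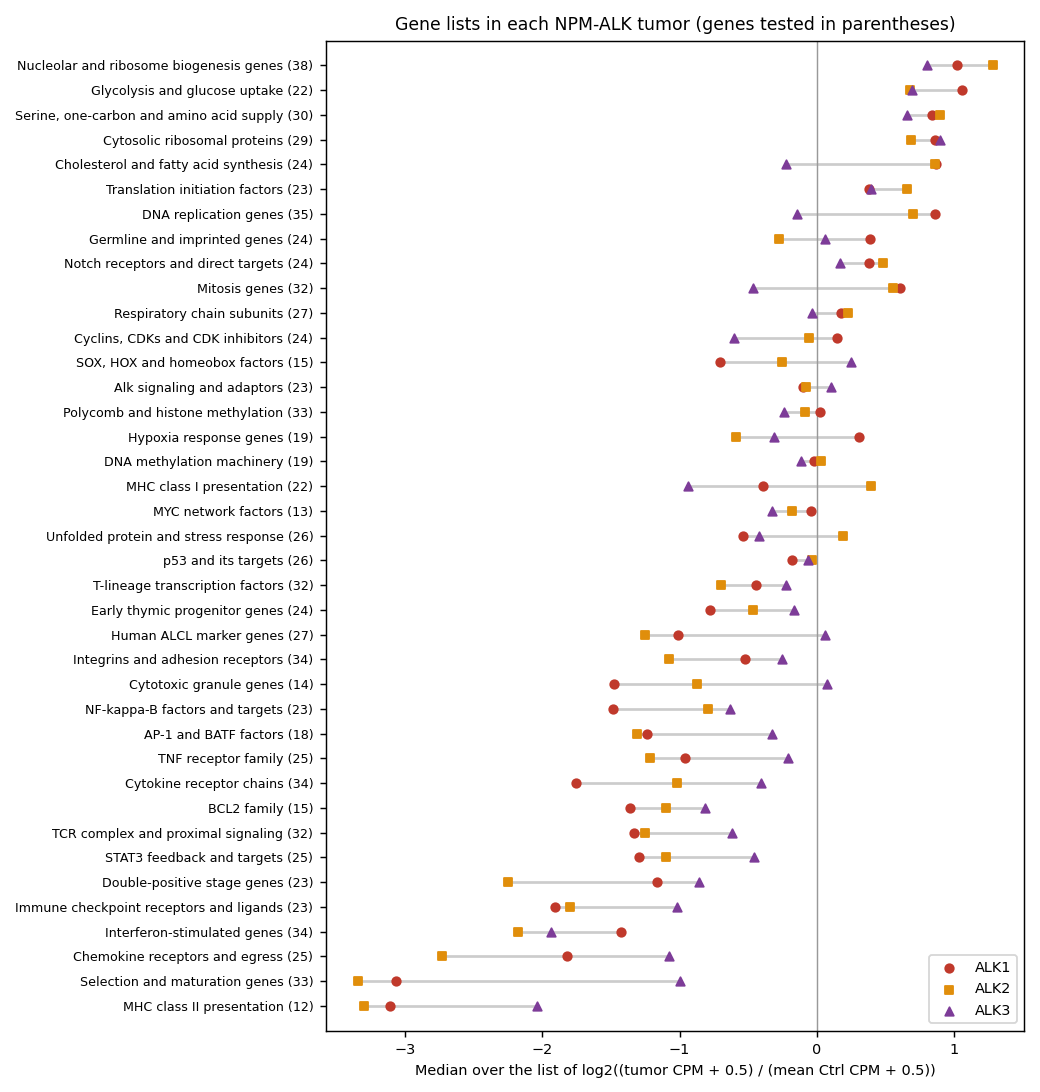
Median over each of 39 pathway and lineage lists of log2((tumor CPM + 0.5)/(mean Ctrl CPM + 0.5)), on the x axis, for ALK1 (circles), ALK2 (squares) and ALK3 (triangles). The medians of 6 lists lie above 0 in all 3 tumors, those of 18 lists lie below 0 in all 3, and 15 lists have medians of both signs.

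Few proliferation genes passed the test, in a comparison with thymocytes, which divide as well. Nearly all nevertheless had a log2(FC) above 0, namely 34 of 35 replication genes and 32 of 32 mitosis genes, against 8427 of 16052 genes tested. An edgeR adjusted p under 0.05 at any fold was found for 8 replication genes, all higher in ALK, and for 0 mitosis genes. Of the DNA replication genes, 3 of 35 tested genes rose and 0 fell, with a median log2(FC) of 0.55 (1 rise without Ctrl1, Ctrl3, ALK1 or ALK2, 9 rises without ALK3, 8 rises with labelled age as a covariate), and of the mitosis genes, 0 of 32 tested genes rose and 0 fell, with a median log2(FC) of 0.29 (1 rise without ALK3). In the mitosis list 2 genes had an unadjusted p under 0.05 and a higher level in ALK, 0 a lower level, and DESeq2 called 0. In the mitosis list ALK3 stood apart from the other tumors, with list medians of the per-tumor log2 ratio to the Ctrl mean of 0.60, 0.55 and -0.47 in ALK1, ALK2 and ALK3. The same medians of the DNA replication list were 0.86, 0.70 and -0.14. Mki67, the proliferation antigen, was at 1577, 1380.3 and 590.1 CPM against 781, 886 and 748 in Ctrl, above Ctrl in ALK1 and ALK2 and below it in ALK3 (log2(FC) 0.56, SE 0.36, adjusted p = 0.26).

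Cell cycle regulators, which decide on entry into division, changed individually. Of cyclins, CDKs and CDK inhibitors, 3 of 24 tested genes rose and 5 fell, with a median log2(FC) of 0.11 (1 rise without Ctrl1 or ALK2, 5 rises without ALK3, 3 falls without Ctrl3). Cdk6, the kinase that pairs with D cyclins, was at 347, 742 and 227 CPM against 140.3, 141 and 141 (log2(FC) 1.64, SE 0.37, adjusted p = 0.00975). Its partner Ccnd2 fell to 6.32, 5.06 and 14.2 CPM from 152, 125 and 169 (log2(FC) -4.12, SE 0.54, adjusted p = 0.000859). Cdk4 was above every Ctrl library, at 407, 535 and 423 CPM against 222, 263 and 202, with a log2(FC) just under the limit (log2(FC) 0.99, SE 0.16, adjusted p = 0.00209), and passed the test without ALK1 (log2(FC) 1.07, adjusted p = 0.00199) and without ALK3 (log2(FC) 1.03, adjusted p = 0.00313) and without Ctrl2 (log2(FC) 1.08, adjusted p = 0.00616). Cdkn2a, which encodes the tumor suppressors p16 and p19, was at 1.01, 13.6 and 16.8 CPM against 0.898, 0.536 and 0.917 (log2(FC) 3.73, SE 1.11, adjusted p = 0.0294), and lost its call without Ctrl1, Ctrl2, Ctrl3, ALK2 or ALK3 (adjusted p = 0.0608 to 0.101). The inhibitor Cdkn1b (log2(FC) -1.07, SE 0.17, adjusted p = 0.00195) and E2f2 (log2(FC) -1.36, SE 0.31, adjusted p = 0.00912) fell.

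In the list of p53 and its targets, 3 of 26 tested genes rose and 7 fell, with a median log2(FC) of -0.15 (1 rise without ALK2, 4 falls without ALK2). Trp53 was at 234, 226 and 259 CPM against 184, 166 and 156, with a small difference under the limit (log2(FC) 0.51, SE 0.11, adjusted p = 0.00842). The target Zfp365 rose (1.89), and the death genes Pmaip1 (log2(FC) -2.51, SE 0.59, adjusted p = 0.0107) and Bbc3 (log2(FC) -1.85, SE 0.36, adjusted p = 0.00496), which encode NOXA and PUMA, fell. They also count in the BCL2 family, in which 1 of 15 tested genes rose and 5 fell, with a median log2(FC) of -0.71 (0 rises without Ctrl3 or ALK2). Bcl2l1, the survival gene of double-positive thymocytes, was at 53.8, 27.6 and 35.3 CPM against 284, 267 and 259 (log2(FC) -2.79, SE 0.30, adjusted p = 0.000411), and Bcl2a1d fell (log2(FC) -2.89, SE 0.69, adjusted p = 0.0118), a member of a cluster of near-identical genes.

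Genes of nutrient use rose beside the growth genes. In glycolysis and glucose uptake, 9 of 22 tested genes rose and 0 fell, with a median log2(FC) of 1.03, and no leave-one-out count differed by over 1.5 times. Pkm, the pyruvate kinase gene, was at 1252, 947 and 917 CPM in the tumors and 308, 371.6 and 316 in Ctrl (log2(FC) 1.65, SE 0.24, adjusted p = 0.0012). The isomerase Tpi1 was at 522, 363 and 206 CPM against 104, 118 and 104 (log2(FC) 1.74, SE 0.32, adjusted p = 0.00366), and Slc16a3, the lactate exporter, at 65.2, 15.1 and 12.4 against 3.28, 3.59 and 2.86 (log2(FC) 3.25, SE 0.69, adjusted p = 0.00674). In serine, one-carbon and amino acid supply, 12 of 30 tested genes rose and 1 fell, with a median log2(FC) of 0.89 (2 falls without ALK3). Slc7a5, an importer of large neutral amino acids, was at 222, 320.4 and 166 CPM against 37.9, 44.6 and 38.9 (log2(FC) 2.54, SE 0.27, adjusted p = 0.000383). Cad, which starts pyrimidine synthesis (log2(FC) 1.93, SE 0.26, adjusted p = 0.0009), and Shmt1, of the folate cycle (log2(FC) 1.81, SE 0.36, adjusted p = 0.00509), rose. The single fall was the cystine importer Slc7a11, at 3.29, 1.31 and 4.61 CPM against 148, 154 and 139.8 (log2(FC) -5.57, SE 0.56, adjusted p = 0.00029).

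Lipid synthesis genes varied among tumors and among Ctrl libraries. In cholesterol and fatty acid synthesis, 7 of 24 tested genes rose and 1 fell, with a median log2(FC) of 0.73 (3 rises without Ctrl1, 11 rises without ALK3, 0 falls without Ctrl1, Ctrl2, Ctrl3, ALK2 or ALK3, 11 rises and 0 falls with labelled age as a covariate), and the per-tumor medians of the list were 0.87, 0.86 and -0.23 in ALK1, ALK2 and ALK3. Their summed level was 4005, 4071 and 3349.8 CPM in the tumors and 3416, 6589 and 9446 in Ctrl, a wider range in Ctrl than in ALK. The synthesis genes Fdps (log2(FC) 2.79, SE 0.61, adjusted p = 0.00808) and Mvd (log2(FC) 1.42, SE 0.26, adjusted p = 0.00366) rose. Of respiratory chain subunits, 0 of 27 tested genes rose and 0 fell, with a median log2(FC) of 0.12 and a range from -0.41 to 0.38, while 1 gene had an unadjusted p under 0.05 and DESeq2 called 0. Of hypoxia response genes, 1 of 19 tested genes rose and 1 fell, with a median log2(FC) of -0.04 (0 falls without Ctrl1, Ctrl3, ALK1 or ALK2), the rise being Lox, a collagen crosslinking enzyme (log2(FC) 2.35, SE 0.54, adjusted p = 0.0097). In the unfolded protein and stress response, 0 of 26 tested genes rose and 3 fell, with a median log2(FC) of -0.14, namely Hspa1a (-4.79) and Hspa1b (-4.80), near-identical heat shock genes that respond to tissue handling, and Xbp1 (-1.50).

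Receptors for signals from other cells were examined by family. Of cytokine receptor chains, 1 of 34 tested genes rose and 11 fell, with a median log2(FC) of -0.71 (4 rises without ALK1). Il2rb, shared by the receptors of interleukins 2 and 15, was at 3.7, 0.96 and 1.88 CPM against 50.1, 41.8 and 41.7 (log2(FC) -4.33, SE 0.68, adjusted p = 0.00181), and Ifngr1, the ligand-binding chain of the interferon gamma receptor, at 86.9, 38.8 and 160.5 against 437, 364 and 385 (log2(FC) -2.05, SE 0.40, adjusted p = 0.00461). The rise was Il12rb2 (log2(FC) 2.05, SE 0.28, adjusted p = 0.000978). The activation receptor Il2ra, which encodes CD25, was at 54.2, 85.6 and 16.7 CPM against 55.6, 63.9 and 58.6 (log2(FC) -0.19, SE 0.43, adjusted p = 0.771), with ALK2 above and ALK3 below the Ctrl range.

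Apart from Tnfrsf8, the members of the TNF receptor family that passed the test fell. Here 1 of 25 tested genes rose and 8 fell, with a median log2(FC) of -0.71 (2 rises without ALK1, 5 falls without ALK2). The further rise without ALK1 was Eda2r (log2(FC) 3.76, adjusted p = 0.0202). With all libraries, 7 of the 25 had a log2(FC) above 0. Cd40 (log2(FC) -3.59, SE 0.60, adjusted p = 0.00235) and Tnfrsf9 (log2(FC) -3.64, SE 0.41, adjusted p = 0.00042), both costimulatory receptors, and the adaptor Traf1 (log2(FC) -4.38, SE 0.55, adjusted p = 0.000689) were among the falls. Of NF-kappa-B factors and targets, 0 of 23 tested genes rose and 8 fell, with a median log2(FC) of -0.68, among them the subunit Relb (log2(FC) -2.51, SE 0.46, adjusted p = 0.00357), the inhibitor Nfkbia (log2(FC) -2.0, SE 0.19, adjusted p = 0.000201), Ltb, which encodes lymphotoxin beta, at 5.17, 0.873 and 3.83 CPM against 134, 111 and 118 (log2(FC) -5.18, SE 0.61, adjusted p = 0.000496), and the chemokine Ccl22 (log2(FC) -6.76, SE 0.57, adjusted p = 8.88e-05). Of AP-1 and BATF factors, 0 of 18 tested genes rose and 4 fell, with a median log2(FC) of -0.69 (8 falls without ALK3), with Jund (log2(FC) -1.82, SE 0.22, adjusted p = 0.000529) and Bach2 (log2(FC) -2.11, SE 0.47, adjusted p = 0.00844) besides Batf3. Junb, an AP-1 gene known for high levels in human ALCL, was at 20.2, 20.9 and 52.4 CPM against 58.6, 44.6 and 47.7 (log2(FC) -0.69, SE 0.37, adjusted p = 0.179), and passed the test without ALK3 (log2(FC) -1.31, adjusted p = 0.00749).

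Immune checkpoint receptors and ligands, which restrain or help T-cell responses, followed: 0 of 23 tested genes rose and 9 fell, with a median log2(FC) of -1.61 (1 rise without ALK1 or ALK2, 16 falls without ALK3). Pdcd1, which encodes PD-1, was at 0.605, 0.175 and 3.21 CPM in the tumors and 33.2, 22.8 and 23.7 in Ctrl (log2(FC) -4.31, SE 0.80, adjusted p = 0.00373), and Cd226, an activating receptor, at 0.269, 0.349 and 3.21 against 19.8, 14 and 20.6 (log2(FC) -3.83, SE 0.76, adjusted p = 0.00504). Tigit was at 0, 0.0873 and 0.156 CPM against 2.48, 3.16 and 2.21 (adjusted p = 0.00182). Of chemokine receptors and egress genes, 0 of 25 tested genes rose and 9 fell, with a median log2(FC) of -1.84, led by Ccr8 (log2(FC) -5.09, SE 0.89, adjusted p = 0.00283), Gpr183 (log2(FC) -3.96, SE 0.71, adjusted p = 0.00317) and, besides Ccr9, Ccr10 at 0, 0 and 0 CPM against 1.48, 2.04 and 1.02 (adjusted p = 0.00336).

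Among integrins and adhesion receptors, 4 of 34 tested genes rose and 9 fell, with a median log2(FC) of -0.42 (1 rise without Ctrl1, 2 rises without Ctrl2, Ctrl3 or ALK3). Itga4, the alpha 4 chain used for homing, was at 6.52, 7.42 and 13.8 CPM against 185, 163 and 213 (log2(FC) -4.34, SE 0.28, adjusted p = 1.9e-05), while Itga9, its closest relative, was at 219.6, 143 and 69.4 against 12.9, 12.2 and 16 (log2(FC) 3.39, SE 0.49, adjusted p = 0.00124). These chains moved in opposite directions in all 3 tumors. Itgae (-3.19), Itgb3 (-2.50), Itgal (-1.74) and Cd47 (-1.59) fell. Of cytotoxic granule genes, 1 of 14 tested genes rose and 4 fell, with a median log2(FC) of -0.49 (0 rises without Ctrl1, Ctrl2, Ctrl3 or ALK3, 2 rises without ALK1). Gzma, which encodes granzyme A, was the rise (log2(FC) 2.01, SE 0.56, adjusted p = 0.0228) and lost its call without Ctrl1, Ctrl2 or Ctrl3 (adjusted p = 0.0595 to 0.0831) and without ALK3 (log2(FC) 0.78). Crtam, a surface protein of killer cells, fell (log2(FC) -4.01, SE 0.96, adjusted p = 0.012), and Fasl, the ligand of Fas, was at 0.0672, 0.0873 and 0 CPM against 2.01, 1.66 and 1.02 (adjusted p = 0.00473).

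Interferon-stimulated genes, which defend cells against viruses, were low in the tumors. Of this list 0 of 34 tested genes rose and 18 fell, with a median log2(FC) of -1.62, none had a log2(FC) above 0, and in 28 the tumors did not overlap with Ctrl (10 falls without Ctrl1, 11 falls without ALK2). Oasl2, an antiviral sensor, was at 4.5, 4.71 and 4.54 CPM in the tumors and 76.1, 52.9 and 72.1 in Ctrl (log2(FC) -3.87, SE 0.19, adjusted p = 2.27e-06). Ifi44 was at 0.269, 0.524 and 1.09 CPM against 27.8, 24.3 and 26.8 (log2(FC) -5.38, SE 0.55, adjusted p = 0.000297), and Ifit1 at 1.75, 0.611 and 1.41 against 36.7, 31.8 and 35.2 (log2(FC) -4.76, SE 0.55, adjusted p = 0.000481). Irf7, the factor that amplifies the response, fell (log2(FC) -3.17, SE 0.77, adjusted p = 0.0126). Of MHC class I presentation genes, 0 of 22 tested genes rose and 2 fell, with a median log2(FC) of -0.05 (1 fall without Ctrl1), and B2m, the shared light chain, was at 631, 1823 and 535 CPM against 1109, 914 and 1073 (log2(FC) -0.05, SE 0.50, adjusted p = 0.95). MHC class II genes, expressed by antigen-presenting cells and thymic epithelium, fell instead: 0 of 12 tested genes rose and 8 fell, with a median log2(FC) of -2.83, with no overlap in 11. Cd74, the invariant chain, was at 61.4, 120.5 and 236 CPM against 1899, 1715 and 1729 (log2(FC) -3.68, SE 0.58, adjusted p = 0.00179), and H2-Aa at 34.8, 47 and 94.8 against 678, 605 and 630.4 (log2(FC) -3.44, SE 0.53, adjusted p = 0.00174). B cell and thymic epithelial markers, given next, fell in the same samples, and their part in the class II and interferon values was not tested.

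Markers of cells other than thymocytes separate into those that fell and those that did not. Of thymic epithelial markers, 0 of 18 tested genes rose and 12 fell, with a median log2(FC) of -3.71 with no leave-one-out count differing by over 1.5 times, and their summed level was 96.6, 149 and 498 CPM in the tumors against 3487, 3949.8 and 3383 in Ctrl. Foxn1, the master factor of this epithelium, was at 0.0672, 0.698 and 1.09 CPM against 15.5, 14.6 and 38.8 (log2(FC) -5.22, SE 1.05, adjusted p = 0.0054). Of B cell markers, 0 of 15 tested genes rose and 5 fell, with a median log2(FC) of -3.24 (2 falls without Ctrl1, Ctrl2, Ctrl3, ALK1 or ALK2, 3 falls without ALK3, 2 falls with labelled age as a covariate, 11 falls with only the ALK and Ctrl libraries fitted), with sums of 78.9, 38.2 and 163 CPM against 1209, 1427 and 1131, and Ighm fell (log2(FC) -4.04, SE 0.69, adjusted p = 0.00258). Of NK and innate lymphoid markers, 0 of 16 tested genes rose and 10 fell, with a median log2(FC) of -3.78 (1 rise without ALK1), with sums of 77.3, 61.7 and 208 CPM against 211, 167 and 171. Of gamma-delta T cell markers, 0 of 11 tested genes rose and 7 fell, with a median log2(FC) of -4.87, with sums of 109, 153 and 319.7 CPM against 1130.2, 1145 and 872, and Tcrg-C1 was at 0.0672, 0 and 0.0782 CPM against 32.6, 43.6 and 28.8 (adjusted p = 8.08e-05). Of granulocyte and mast cell markers, 0 of 11 tested genes rose and 7 fell, with a median log2(FC) of -3.74 (2 falls without Ctrl3 or ALK2, 3 falls without Ctrl1, 4 falls without Ctrl2 or ALK1), with sums of 5.64, 3.84 and 16.3 CPM against 38.4, 38.6 and 47.1.

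Macrophage and endothelial markers were not called in either direction. For macrophages and monocytes 0 of 18 tested genes rose and 0 fell, with a median log2(FC) of 0.12 (1 rise without ALK1, 1 fall without ALK3), with sums of 701, 611 and 1489.6 CPM in the tumors against 888, 870.4 and 957 in Ctrl, and for endothelium 0 of 16 tested genes rose and 0 fell, with a median log2(FC) of 0.26, with 311, 268 and 368 against 257, 243 and 346. At an unadjusted p under 0.05 there were 1 higher and 1 lower macrophage gene and 0 endothelial genes, and DESeq2 called 1 and 1 of the former and 0 of the latter. Of fibroblast and pericyte markers, 6 of 18 tested genes rose and 0 fell, with a median log2(FC) of 1.28 (1 rise without Ctrl1 or Ctrl2, 3 rises without Ctrl3, 1 fall without ALK1 or ALK3), and the collagen gene Col1a1 was at 702, 381 and 243 CPM against 26.7, 14.2 and 28.6 (log2(FC) 4.26, SE 0.89, adjusted p = 0.00657). The sums of that list, which holds Thy1, also a T-cell gene, were 4146, 3352 and 3762 CPM against 2959.8, 3011 and 2688. Of dendritic cell markers, 1 of 12 tested genes rose and 6 fell, with a median log2(FC) of -2.15 (2 rises without ALK1), and their sums of 162, 1021 and 2521 CPM against 438, 397 and 465 were set in ALK2 and ALK3 by Ly6d, at 7.66, 728 and 2135 CPM against 94.7, 147 and 158 (log2(FC) 2.85, SE 1.24, adjusted p = 0.106), which passed the test without ALK1 (log2(FC) 3.42, adjusted p = 0.00434). The rise in this list was Tcf4 (log2(FC) 1.59, SE 0.30, adjusted p = 0.00376). Of erythroid and platelet markers, 1 of 10 tested genes rose and 0 fell, with a median log2(FC) of -0.57 with sums of 221, 33 and 780.1 CPM against 595, 396 and 510.2, the rise being the receptor Epor (log2(FC) 2.37, SE 0.56, adjusted p = 0.0109). How far such cells account for any fall or rise described here was not tested.

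Of the DNA methylation machinery, which writes, reads and removes the mark, 3 of 19 tested genes rose and 1 fell, with a median log2(FC) of -0.04 (0 falls without ALK2, 2 falls without Ctrl3 or ALK3). Dnmt3b, a de novo methyltransferase, was at 21.2, 33.7 and 32.8 CPM against 7.82, 10.1 and 9.17 (log2(FC) 1.70, SE 0.26, adjusted p = 0.00155), and Zbtb38, which binds methylated DNA, rose (log2(FC) 1.79, SE 0.33, adjusted p = 0.00376), while Dnmt3a was at 209, 154 and 222 against 187, 183 and 191 (adjusted p = 0.796). Of polycomb and histone methylation genes, 0 of 33 tested genes rose and 1 fell, with a median log2(FC) of -0.03 (1 rise without Ctrl2 or ALK2, 3 rises without ALK3, 2 falls without Ctrl1, ALK1 or ALK2, 3 falls without ALK3), the fall being Phf1 (log2(FC) -1.37, SE 0.29, adjusted p = 0.00729). Among germline and imprinted genes, 4 of 24 tested genes rose and 2 fell, with a median log2(FC) of 0.50 (2 rises without Ctrl1, Ctrl2, Ctrl3 or ALK1, 4 falls without ALK1). H19, an imprinted RNA silent in most adult tissue, was at 185, 11794 and 1904 CPM against 13.6, 13.4 and 8.36 (log2(FC) 8.61, SE 1.70, adjusted p = 0.00498), and its neighbor Igf2, a growth factor, at 7.66, 3571 and 202 against 2.64, 2.14 and 3.88 (log2(FC) 8.76, SE 1.87, adjusted p = 0.00705). Both were highest in ALK2, lower in ALK3 and lowest in ALK1, where Igf2 was still above Ctrl. Nnat, also imprinted, fell (log2(FC) -6.24, SE 1.41, adjusted p = 0.00926), and Peg10 was at 0.134, 0.175 and 0 CPM against 0.846, 1.23 and 1.13 (adjusted p = 0.0114). Without ALK1 the median of the list was -0.19.

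Ranked by the tumor that moved least, the rises shared by all 3 tumors were led by Cpsf4l, Alk, Ror2, Adamts20, Osbp2, Spp1, Fbp1, H19, Ace and Rab3b. Cpsf4l, related to an RNA cleavage factor, was at 415, 781 and 424 CPM in the tumors and 1.74, 1.55 and 1.67 in Ctrl (log2(FC) 8.34, SE 0.48, adjusted p = 6.82e-06), and varied little among the tumors. Ror2, a receptor for Wnt ligands, was at 36.9, 167 and 214 CPM against 0.528, 0.322 and 0.755 (log2(FC) 8.0, SE 0.85, adjusted p = 0.000373), and the secreted protease Adamts20 at 100.1, 24.5 and 192 against 0.476, 0.643 and 0.431 (log2(FC) 7.65, SE 0.82, adjusted p = 0.000389). Spp1, which encodes osteopontin, was at 56.3, 222 and 122 CPM against 3.07, 1.66 and 2.7 (log2(FC) 5.75, SE 0.61, adjusted p = 0.000358). Fbp1, an enzyme of gluconeogenesis, was at 26.1, 802 and 30.6 CPM against 0.951, 1.07 and 0.863 (log2(FC) 8.21, SE 1.55, adjusted p = 0.00395), so that it was far above Ctrl in each tumor and by far highest in ALK2. The peptidase gene Ace (log2(FC) 5.72, SE 0.91, adjusted p = 0.00189), Osbp2 (log2(FC) 7.23, SE 1.30, adjusted p = 0.00322) and Rab3b (log2(FC) 5.32, SE 0.92, adjusted p = 0.00271) complete the group.

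The falls ranked in the same way were led by Prss16, Tbata, Psmb11, Crip3, Cd5, Ache, Ubd, Jchain, Cd8b1 and Fxyd2. Of these, Prss16, Tbata and Psmb11 are genes of thymic epithelium, the last being a proteasome subunit of the cortex at 0.0672, 0.349 and 0.313 CPM in the tumors and 106, 129.9 and 113 in Ctrl (log2(FC) -8.92, SE 1.03, adjusted p = 0.00047). Prss16 was at 0.739, 2.88 and 2.82 CPM in the tumors and 968, 1097 and 878 in Ctrl (log2(FC) -8.85, SE 0.97, adjusted p = 0.000412), and Tbata at 0.873, 1.22 and 1.8 against 624, 728 and 617 (log2(FC) -8.98, SE 0.95, adjusted p = 0.000358). Jchain, which joins immunoglobulin chains in plasma cells, was at 1.88, 2.79 and 3.28 CPM against 235, 261 and 101 (log2(FC) -6.23, SE 1.29, adjusted p = 0.0062). The ubiquitin-like gene Ubd was at 0.336, 0.262 and 0.156 CPM against 92, 52.5 and 68.3 (log2(FC) -8.08, SE 0.37, adjusted p = 1.58e-06), and Crip3 (log2(FC) -8.87, SE 1.02, adjusted p = 0.000462), Ache (log2(FC) -8.03, SE 0.79, adjusted p = 0.000269) and Fxyd2 (log2(FC) -6.66, SE 0.83, adjusted p = 0.00065) were at most 1.07 CPM in any tumor. Thymic epithelial markers fell in the same tumors, as given above, and their part in these values was not tested.

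The tumors were less alike than the Ctrl libraries. The SD of log2(CPM + 0.5) over 3 libraries had a median of 0.39 in ALK and 0.18 in Ctrl, and was larger in ALK for 79.7% of genes. Between tumors, 1289 genes differed by over 4-fold between ALK1 and ALK2, 1562 between ALK1 and ALK3 and 742 between ALK2 and ALK3. Between Ctrl libraries these counts were 64, 107 and 74. By these counts ALK1 was the tumor farthest from the others.

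**Figure D3:**
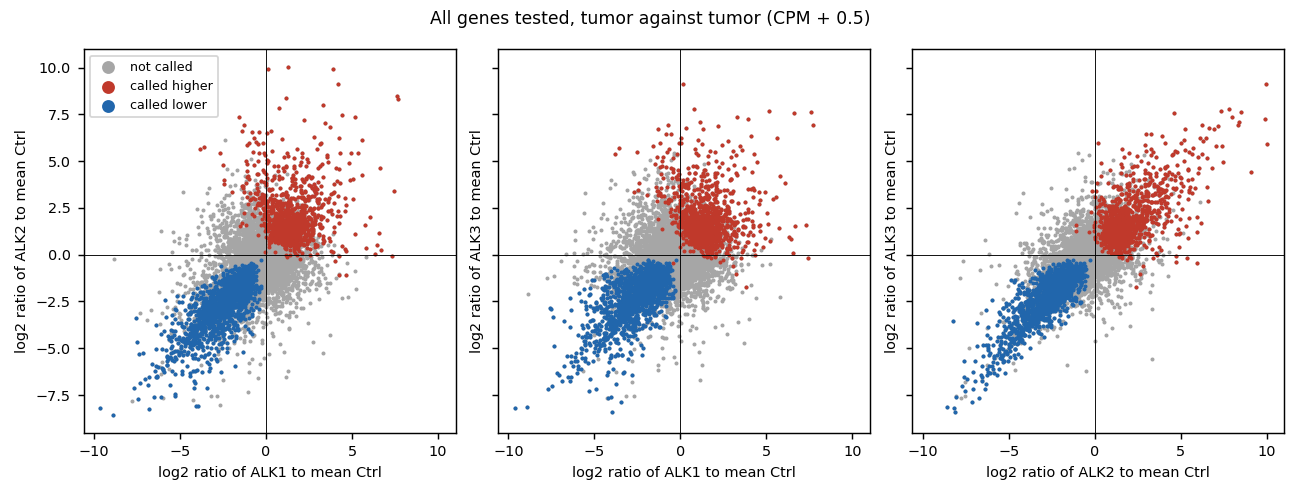
Log2((tumor CPM + 0.5)/(mean Ctrl CPM + 0.5)) of each tested gene in 1 tumor against another, for the pairs ALK1 and ALK2, ALK1 and ALK3, and ALK2 and ALK3. Genes that rose are red, genes that fell blue and the others grey. All tumors share the Ctrl mean in these ratios, and the red points spread more widely around the diagonal than the blue ones.

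Falls were shared by the tumors more often than rises. Of the 1931 genes that fell, 1558 (80.7%) were past a log2 ratio of 1 below the Ctrl mean in each tumor, and 0 had the other sign in any tumor. Of the 1350 genes that rose, 485 (35.9%) were past that ratio in each tumor, 687 in 2 and 173 in 1, while 95 were not above the Ctrl mean in ALK1, 10 in ALK2 and 18 in ALK3. In 1922 of the falls (99.5%) and 1171 of the rises (86.7%) the tumors did not overlap with Ctrl, beside 46.4% of all tested genes. The rises had a median log2 ratio of 1.32 in ALK1, 1.53 in ALK2 and 1.42 in ALK3, and the falls of -2.13, -2.25 and -1.85, so that the falls were also larger. Without any 1 of the 6 libraries 542 of the rises and 1206 of the falls kept their call. The genes were called from these same libraries, so that shared direction and lack of overlap among them are in part fixed by the calling. A group mean falls far only where every tumor is low, since no level goes below 0 CPM. A rise of the mean can be carried by 1 tumor with a high level. The difference between rises and falls was not tested.

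Counting each tumor against the Ctrl mean, 2117, 2298 and 1755 genes differed by over 4-fold in ALK1, ALK2 and ALK3. Of these genes, 834 did so in all 3 tumors in 1 direction, 1031 in 2 tumors only and 1489 in 1 tumor only. In 87 genes, 1 tumor lay over 4-fold above and another over 4-fold below the Ctrl mean.

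Single tumors also had genes of their own, defined as at least 10 CPM and 16-fold above every other ALK and Ctrl library on the scale of CPM + 0.5. There were 14 in ALK1, 5 in ALK2 and 7 in ALK3, and 1, 0 and 0 in Ctrl1 to Ctrl3. In ALK1 these were led by Rnd2, a small GTPase, at 492 CPM with at most 8.84 in the other tumors, followed by Cux2, D430041D05Rik, Grip2 and Bex1. In ALK2, Rhobtb3 was at 187 CPM against 1.75 and 1.72 in the other tumors, with AI427809, Fbp1, Lmcd1 and Igf2 behind it. In ALK3, Scrn1 was at 81.6 CPM against 0.739 and 0.96, followed by Pkd2l1, Rec8, a cohesin of meiosis, Xist and Fam84a. Such levels are those of 1 mouse each and have no replicate. Of these genes 8 in ALK1, 5 in ALK2 and 2 in ALK3 had nevertheless passed the test of the group, among them Rnd2, which lost its call without Ctrl1, Ctrl2, Ctrl3 or ALK1 (adjusted p = 0.0672 to 0.135), Rhobtb3, which lost its call without Ctrl1, Ctrl2, Ctrl3 or ALK2 (adjusted p = 0.112 to 0.479), and Scrn1, which lost its call without Ctrl1, Ctrl2, Ctrl3 or ALK3 (adjusted p = 0.124 to 0.967).

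The reverse, genes at least 10 CPM and 16-fold higher in every other library, concerned mainly ALK1, with 18 genes against 2 in ALK2 and 0 in ALK3. Cd2, an adhesion receptor of T cells, was at 1.88, 394 and 394 CPM in the tumors and 179, 163 and 156 in Ctrl, near 0 in ALK1 and above Ctrl in the others, and passed the test without ALK1 (log2(FC) 1.25, adjusted p = 0.000245). Il7r, Cd8a and Trbc1, described above, and Nkg7, a cytotoxic granule gene at 0.202, 30.6 and 24.7 CPM against 17.5, 16.7 and 16.4, belong to this group, as do Epcam and Krt5. In ALK2 the genes were Arhgef18 and Hmga1b.

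**Figure D4:**
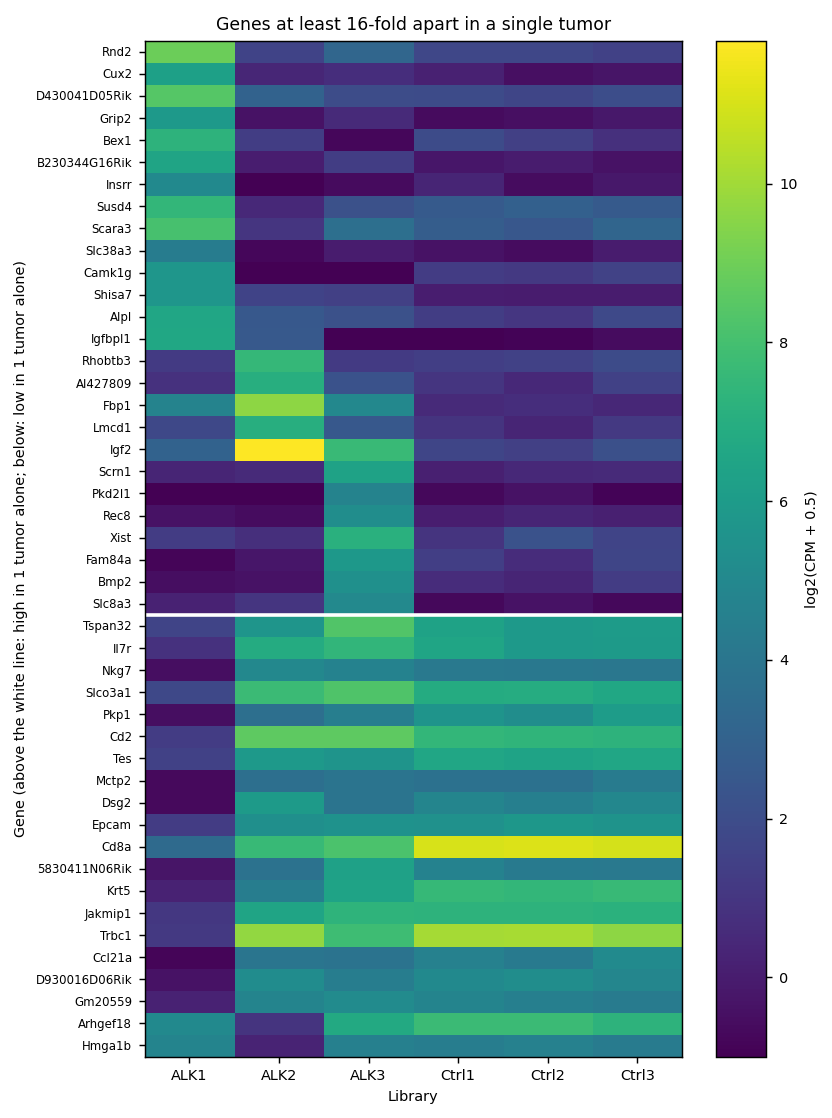
Heat map of log2(CPM + 0.5) in ALK1 to ALK3 and Ctrl1 to Ctrl3 for 26 genes high in 1 tumor alone, above the white line, and 20 genes low in 1 tumor alone, below it. The 14 genes high in ALK1 and the 18 genes low in ALK1 make up most of the rows.

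Shifts of whole chromosomes were looked for as the median log2 ratio to the Ctrl mean over genes of at least 10 CPM in Ctrl. In ALK3 the 419 genes of chromosome 15 had a median of 0.47, and 72.1% of them lay above the Ctrl mean. The same chromosome was at 0.07 in ALK1 and 0.01 in ALK2. Chromosome 14 was next in ALK3, at 0.31. Each Ctrl library against the mean of the others ranged from -0.12 to 0.06 over all chromosomes. The other tumors ranged more widely, with highest medians of 0.16 in ALK1 (chromosome 8) and 0.26 in ALK2 (chromosome 18), the latter near chromosome 14 of ALK3. Windows of 20 Mb with at least 20 genes ranged from 0.38 to 0.64 along chromosome 15 of ALK3, so that the shift was spread over its length. With other gene cutoffs, another scaling or called genes left out, all chosen after the data were seen, its median was 0.43 to 0.47 and that of chromosome 14 was 0.22 to 0.27. Myc lies on chromosome 15, and its level was 244, 276 and 217 CPM in ALK1, ALK2 and ALK3. Whether the shift bears on the level of Myc was not tested. DNA copy number was not measured.

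**Figure D5:**
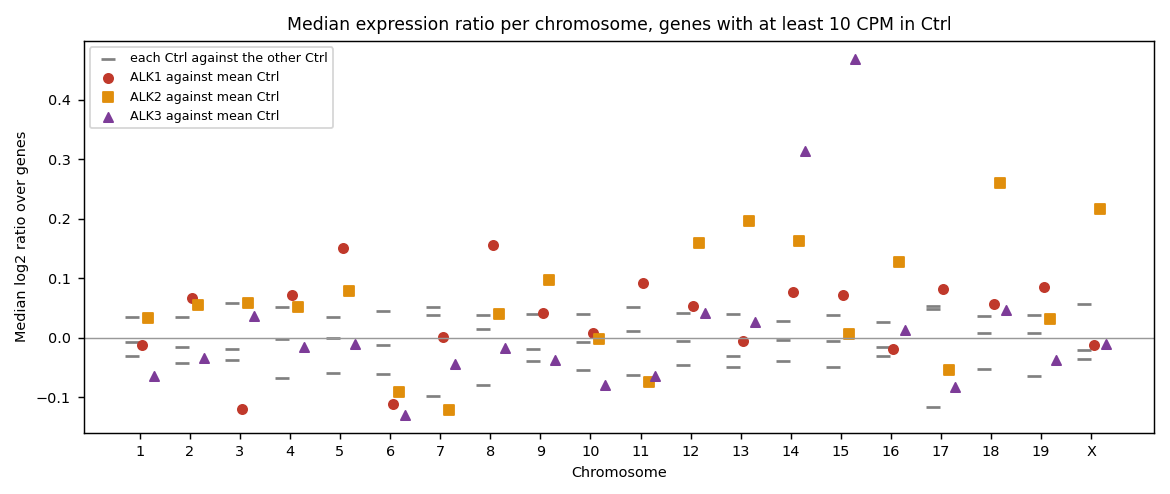
Median log2 ratio of CPM per chromosome for ALK1, ALK2 and ALK3 against the mean of Ctrl, with each Ctrl library against the mean of the other Ctrl libraries, over genes of at least 10 CPM in Ctrl. Chromosome 15 of ALK3, at 0.47, is the highest point, and the Ctrl points lie between -0.12 and 0.06.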

How the data were processed

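RNA-Seq libraries, strand-specific and poly(A)-selected, were read single-end. Per the labels, the methods and the submitters' processing notes, the authors trimmed the reads with Trim Galore, checked them with FastQC and Picard 2.19.2, aligned them to mm10 with STAR and counted them per gene with HTSeq. The deposited values are raw counts per gene, without normalization. DESeq2, which the authors also used, has its results in no file used here. Other versions, the annotation release and the strand setting of the counting are not given in the sources used here, so values of overlapping and antisense genes are uncertain. Reads without a gene were 3.38% to 3.71% of all counts in Ctrl and 4.03% to 4.39% in ALK, and those of several genes 3.54% to 3.74% and 2.68% to 3.15%; both were left out of library sizes and tests.

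Of 50600 gene IDs, 50376 were matched to GENCODE M21 (GRCm38). Of 28141 genes with a read, 16052 passed filterByExpr and were tested with edgeR 4.0.16 (limma 3.58.1, R 4.3.3). The design had 1 term per group over all 12 libraries, so that ALK and Ctrl share the spread of the other groups (common biological coefficient of variation 0.436). TMM factors, robust glmQLFit, glmQLFTest and Benjamini-Hochberg adjustment over all genes tested were used. Each SE was derived from the F statistic. Replicates are separate mice. Chi-square values of their counts over genes, divided by the degrees of freedom, were 13.5 to 160 within a group, far above sampling noise. Floors of 3 counts cover counting error only. Genes at or below that floor in all tumors are given as CPM without a fold. Ratios of single tumors used an offset of 0.5 CPM. Promoter sequences are from RefSeq on GRCm38.p6. The scripts were tested on simulated data, with Python 3.11.15 and pandas 2.3.3.

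The samples, gene lists and tests were chosen with earlier results of these data known, so that no list is independent evidence. Named genes follow a rule: a set of anchor genes, up to 3 rises and 3 falls per list with at least 5 CPM, no overlap and a call kept without any 1 library, the 10 rises and 10 falls ranked by the weakest tumor, and the 5 genes with the widest gap in each tumor. Other list members named in the text were chosen after their values were seen. Some items that the rule names and 1 list are not reported here. Lists are described by counts and medians, with no set test. The replicate numbers do not pair the mice, as the correlations of same-numbered ALK and Ctrl libraries were -0.0249, 0.0631 and 0.0235 across genes. Alternatives were DESeq2 1.42.0 (Wald test), DESeq2's size factors, library totals, other count filters, the replicate block, labelled age, only the 6 libraries, glmTreat, other offsets and each library left out.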

Additional observations from a re-analysis of the deposited data

How the results depend on the processing

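When at least 10 counts in every library were required, 1756 genes were called, 1662 of them among the 3281 of the main fit. Of the 1756, 931 were higher and 825 lower (53% higher in place of 41.2%). Under this filter genes near 0 in 1 group cannot be tested. By glmTreat, which tests for a change above 2-fold, 1325 were called (340 higher, 985 lower), and with no fold change threshold 2371 were higher. Leaving out 1 ALK or Ctrl library gave 2130 to 3748 calls (3787 without KO replicate 2, which enters the fit), with 709 (without Ctrl1) to 1616 higher and 1421 to 2326 lower, and 69 to 125 distinct list genes higher. Rises were thus more dependent on Ctrl1 and Ctrl2 (842 without the latter) than falls. DESeq2's Wald test called 3969. With only the 6 ALK and Ctrl libraries fitted, 2586 genes were called (982 higher, 1604 lower), 2381 of them among the 3281. With the replicate block 2911 genes were called (1102 higher, 1809 lower), 2810 of them among the 3281, and a block by numbers that do not pair the mice bears on no pairing. With an offset of 2 CPM, 316 rises and 1036 falls were past a log2 ratio of 1 in all tumors in place of 485 of 1350 and 1558 of 1931, and among genes of at least 10 CPM 677 of 884 falls were, while 839 of these 10778 genes were over 4-fold from Ctrl in 1 tumor only in place of 1489 of 16052. Without 1 library the log2(FC) of Fam84a ranged from -3.22 (without ALK3, adjusted p = 0.0235) to 3.88 and that of Rhobtb3 from -0.59 (without ALK2, adjusted p = 0.479) to 5.20, each being high in that tumor alone. Of 2128 values of named genes over all alternatives, 2037 kept direction and side of the threshold, 72 were weaker and 17 stronger. Many of these genes were named because their call stood without any 1 library, so their stability in those fits was fixed in advance. Over all calls, 542 of 1350 rises and 1206 of 1931 falls stood without any 1 library. Of 750 list medians, 708 moved by less than the SD of the list's median over the 3 tumors. This SD is wide where tumors differ, so that such lists pass most easily. With labelled age as a covariate 10 of 50 moved further, and without ALK3 13 did. The sign of medians near 0 changed with the setting in the lists of ALK signaling, SOX and HOX factors, cyclins, p53, respiratory chain, hypoxia, MHC class I, DNA methylation, polycomb and macrophage markers, as that of granulocyte markers did with at least 10 counts required (0.40). By counting error alone, a count of 0 still allows a level of up to 0.24 CPM in the shallowest tumor library. This bound does not cover genes listed at 0 in all libraries, such as Rpl13 and Cox4i1.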
